A study of Sus scrofa with 24 samples.

Results

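The hypoxia-responsive genes HIF1A, EPAS1, VEGFA, ADM, EGLN1, EGLN3, BNIP3, PDK1, CA9 and ANKRD37 were measured by RNA sequencing in the hippocampus of newborn pigs. They were chosen by name, as genes of the cellular response to low oxygen, and were found by matching the Entrez gene identifier of each counted gene to its symbol. All 10 were present among the 38882 listed genes, and all 10 passed the filter on low counts, which 16326 genes passed.

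The hippocampi came from 24 piglets of a PIC Camborough (dam) and PIC 359 (sire) cross, collected at postnatal day 14, with 6 piglets in each of 4 groups. The groups were appropriate for gestational age (AGA) or small for gestational age (SGA) at birth, defined by birth weight, and were fed a control formula (CON) or a formula with hydrolyzed fat (HF), in which part of the triglyceride was replaced by free fatty acids, monoacylglycerol and lecithin. The 24 piglets came from 12 litters, 6 on each diet and 6 in each of 2 cohorts. Each litter gave an SGA and an AGA piglet that were matched for sex and fed alike. Neither the labels nor the methods name a low-oxygen treatment, and small size at birth was the only measure of fetal growth restriction.

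Cells sense oxygen through prolyl hydroxylases of the EGLN family, which mark the alpha subunits of the hypoxia-inducible factors (HIF) for destruction while oxygen is present. When oxygen falls, the alpha subunits accumulate, pair with ARNT or ARNT2 and raise the transcription of genes for glucose use, vessel growth, acid export and removal of mitochondria. The alpha subunits are controlled mainly as proteins, so the RNA of HIF1A and EPAS1 does not report their activity directly, whereas the RNA of target genes such as VEGFA, ADM, EGLN3, CA9, PDK1, BNIP3 and ANKRD37 is known to rise. The question for the comparison of sizes was whether such a response was still visible at day 14 in piglets that were small at birth.

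Library totals over the listed genes ran from 6017336 to 9284355 counts, with a median of 7346072.5. Levels are in CPM, the read count scaled to the library size, with library sizes adjusted by the TMM method, and 3 counts corresponded to 0.319 to 0.494 CPM depending on the library, so that values near that level have little precision. That limit covers counting error only, while the 95% intervals of log2 fold changes come from the edgeR fit and include the spread between piglets. The labelled tissue carried the markers of neural cells in every library, with summed levels of 7 neuron markers between 4170 and 10700 CPM and of 7 astrocyte markers between 8790 and 14100 CPM. Several libraries stood apart. AGA CON replicate 2 had the lowest neuron sum (4170 CPM) and the highest endothelial sum (359 CPM), AGA HF replicate 4 had the next lowest neuron sum (5220 CPM), and SGA HF replicate 4 held 384 CPM of 7 pituitary markers against a median of 35.6 CPM over all libraries. SGA CON replicate 1 held 156 CPM of 5 choroid plexus markers against a median of 20 CPM. Results were recomputed without each of these libraries.

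No hypoxia-responsive gene passed the test for size, for diet or for their interaction. In edgeR's quasi-likelihood test with Benjamini-Hochberg adjustment over all genes and 7 contrasts, 0 of the 10 genes passed the FDR p of 0.4 that was used to call genes, in any contrast. Over all 16326 genes tested, 0.478% were called for size, 0.159% for diet and 0.049% for the interaction. In the pairwise contrasts the share called was 0.129% for SGA CON against AGA CON, 0.288% for SGA HF against AGA HF, 0.0674% for AGA HF against AGA CON and 0.0919% for SGA HF against SGA CON. At an unadjusted p of 0.05, 1 of the 10 genes passed for size (EPAS1, higher in SGA), where 10.6% of all genes did. For diet 1 of 10 passed (EPAS1, lower in HF), where 7.1% of all genes did, and for the interaction 1 of 10 passed (EGLN1), where 4.01% did. Littermates shared a diet, but this fit took each piglet as a unit, without a litter term. With litter means as the unit, 0 of the 10 genes passed 0.05 for diet (exact permutation test). The diet values of the related hypoxia lists below come from the fit alone. Among the pairwise contrasts EPAS1 passed for SGA CON against AGA CON (6.59% of all genes) and EGLN1 for SGA HF against AGA HF (8.02%) and for SGA HF against SGA CON (5.16%), and 0 of 10 passed for AGA HF against AGA CON (6.09%). DESeq2 and limma voom also called 0 of the 10 genes in every contrast.

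The median log2 fold change of the 10 genes was -0.038 for size, with 4 genes higher and 6 lower in SGA, beside a median of -0.002 over all genes tested. For diet the median was -0.072, with 4 genes higher and 6 lower in HF, beside 0.002 over all genes. For the interaction the median was -0.060, beside 0.003. Across the 10 genes, the size differences lay between -0.23 for PDK1 and 0.22 for EPAS1 on the log2 scale.

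**Figure D1:**
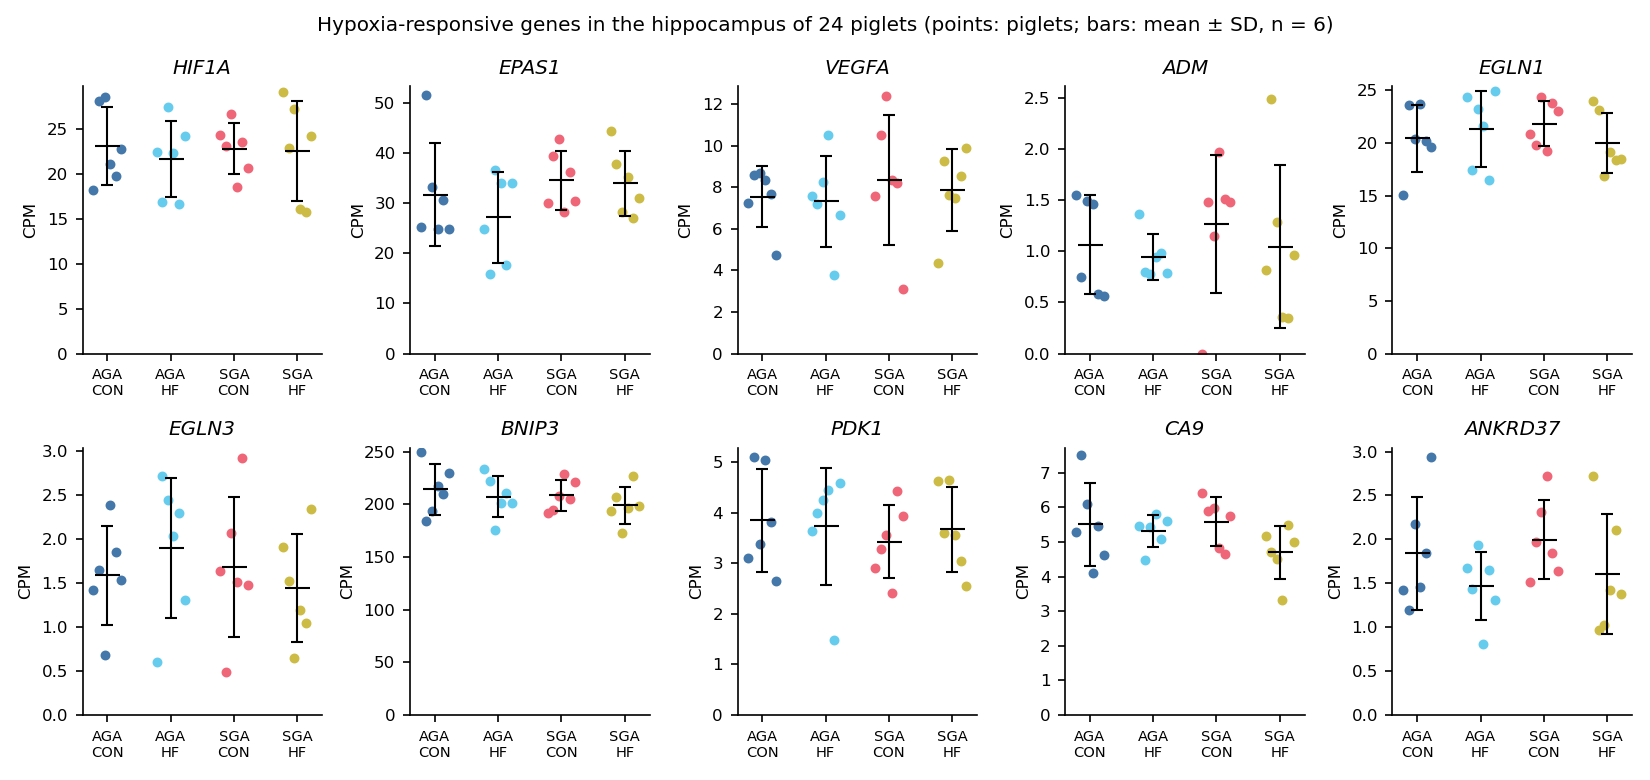
Level of each hypoxia-responsive gene (CPM, vertical axis from 0) in each of 24 hippocampus libraries by group; points are piglets and bars are mean ± SD of 6 piglets. In every gene the 4 groups overlapped.

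The levels of the 10 genes were compared per length, as CPM per kilobase of annotated exon, with the exons of the Sscrofa10.2 annotation, which may lack parts of the untranslated regions. BNIP3 was the highest, at 141 ± 12.7 CPM per kilobase (SD, n = 24), which placed it above 95.9% of the genes tested. EPAS1 followed at 11.5 ± 2.96, HIF1A at 7.88 ± 1.43 and EGLN1 at 7.73 ± 1.07 CPM per kilobase. PDK1, VEGFA and CA9 had 2.52 ± 0.616, 2.43 ± 0.675 and 2.35 ± 0.378 CPM per kilobase. ANKRD37 had 1.68 ± 0.541, and ADM and EGLN3 were lowest with 0.723 ± 0.374 and 0.516 ± 0.211 CPM per kilobase.

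Some steps of the order held in nearly all libraries and others did not. BNIP3 was above EPAS1 in all 24 libraries, EPAS1 above HIF1A in 23, EGLN1 above PDK1 in 24, CA9 above ANKRD37 in 21 and ANKRD37 above ADM in 23. HIF1A was above EGLN1 in only 11 of the 24 libraries, PDK1 above VEGFA in 13, VEGFA above CA9 in 13 and ADM above EGLN3 in 13, so these neighbours did not differ beyond their spread. Among the target genes, the RNA level per kilobase of the mitochondrial BNIP3 was above that of the secreted VEGFA and ADM in the mean.

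**Figure D2:**
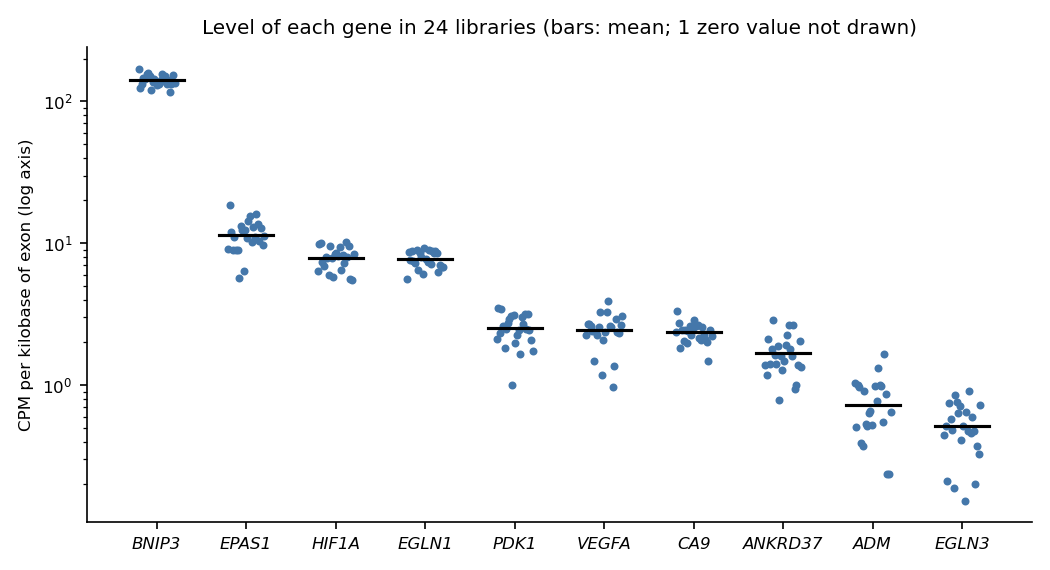
Level of each gene per kilobase of annotated exon (CPM per kilobase, log axis) in the 24 libraries, in order of the mean; points are libraries and bars are means. BNIP3, at a mean of 141, lay above EPAS1, at 11.5, in every library, and HIF1A and EGLN1 overlapped.

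EPAS1 (HIF-2 alpha; chr3:100157832-100211343, plus strand, Sscrofa10.2) encodes the alpha subunit that is abundant in endothelial cells and astrocytes. AGA CON piglets had 24.8 CPM at the lowest, 28.0 at the median and 51.6 at the highest, and AGA HF piglets 15.8, 29.4 and 36.7 CPM. SGA CON piglets had 28.3, 33.4 and 42.9 CPM, and SGA HF piglets 27.0, 33.2 and 44.4 CPM. No SGA piglet was below 27.0 CPM while several AGA piglets were, the groups overlapped, and the highest value of all was an AGA CON piglet, replicate 2, the library that stood apart in neuron and endothelial markers.

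EPAS1 was 1.17-fold higher in SGA, a log2 fold change of 0.22 with a 95% interval of 0.071 to 0.37 and SE of 0.073 (edgeR quasi-likelihood, adjusted p = 0.555). This did not pass the threshold. Between littermates the SGA piglet was higher in 9 of 12 litters. In the CON litters the SGA minus AGA difference of log2 CPM was 0.24, -0.38, 0.37, 0.19, 0.24 and 0.30, for litters 2, 4, 6, 8, 10 and 12. In the HF litters it was 0.83, 1.24, -0.37, 0.048, 0.61 and -0.13, for litters 1, 3, 5, 7, 9 and 11.

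The differences between littermates in EPAS1 thus were mostly positive, with the largest in HF litters 1 and 3. Their mean was 0.27 ± 0.47 (SD, n = 12 litters; exact two-sided sign-flip test, p = 0.0747). Litters 4 and 5, in which the AGA piglet was higher, ran against this mean, and without either litter the exact sign-flip p was 0.0312. Over all choices of a litter left out, the exact sign-flip p ran from 0.0312 to 0.149 and the mean from 0.177 to 0.325. Within cohort 1 the mean difference was 0.32 (exact p = 0.344) and within cohort 2 it was 0.21 (exact p = 0.0938). Without AGA CON replicate 2 the edgeR log2 fold change was 0.20 (adjusted p = 0.479). Without SGA CON replicate 1 it was 0.26 (adjusted p = 0.408). Over 13 alternatives the log2 fold change for size stayed between 0.18 and 0.26, with FDR p from 0.408 to 0.975.

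The EPAS1 levels moved with other features of the libraries. The 5 surrogate variables accounted for 75.5% of the variance of its log2 CPM, against a median of 43.7% over all genes tested, and size for 12.4% (median 3.09%). The summed level of 8 endothelial markers ranged from 185 to 359 CPM in AGA piglets (median 232) and from 200 to 294 in SGA piglets (median 229), with 1 of the 8 under 1 CPM. Singly, 6 of the 8 were higher and 2 lower in SGA (median log2 fold change 0.088), while CLDN5, their highest per kilobase, had -0.16. Of 8 mural cell markers 6 were higher and 2 lower (median 0.073). Of 7 astrocyte markers 2 were higher and 5 lower (median -0.052), and over all genes tested 49.2% were higher. The part of cell composition in the EPAS1 difference was not tested. In whole tissue, fewer cells of a type and less RNA per cell cannot be told apart.

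For diet, EPAS1 was 0.898-fold in HF (log2 fold change -0.16, 95% interval -0.31 to -0.003, adjusted p = 0.724). With the litter as the unit, the HF mean was 0.14 lower in log2 CPM, with 4.89 ± 0.27 in 6 HF litters and 5.03 ± 0.31 in 6 CON litters (exact two-sided permutation test, p = 0.444). In the edgeR fit of cohort 2 alone, with sex in place of the surrogate variables, the direction was opposite, at 0.039.

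HIF1A (HIF-1 alpha; chr1:212130958-212179888, plus strand) is the alpha subunit found in most cell types. The AGA CON group had 18.2, 21.9 and 28.6 CPM at the lowest, median and highest, and AGA HF piglets 16.6, 22.4 and 27.4 CPM. The SGA CON group had 18.5, 23.3 and 26.7 CPM, and SGA HF piglets 15.7, 23.5 and 29.1 CPM. The ranges overlapped over most of their length. The size log2 fold change was 0.017 (95% interval -0.16 to 0.19, adjusted p = 0.987), and the SGA piglet was higher in 4 of 12 litters (mean difference 0.016 ± 0.29, exact sign-flip p = 0.84).

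Cohort accounted for 24.3% of the variance in HIF1A log2 CPM, against a median of 3.98% over all genes tested, with 24.6 ± 4.01 CPM in cohort 1 (SD, n = 12) and 20.5 ± 3.11 CPM in cohort 2 (SD, n = 12). Diet gave a log2 fold change of -0.17 (95% interval -0.35 to 0.005, adjusted p = 0.746), and 6 HF against 6 CON litter means differed by -0.071 (exact permutation p = 0.621).

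Of the other genes of oxygen sensing, 12 of 13 symbols were found and 9 were tested. None was called in the size or the diet contrast, 0 passed an unadjusted p of 0.05 in either, 4 were higher and 5 lower in SGA, and the median log2 fold change was -0.004. Of all genes tested, 10.6% passed that p for size and 7.1% for diet, and 49.2% were higher in SGA. ELOB, a subunit of the ligase complex that binds hydroxylated HIF alpha, was the highest of them at 234 CPM per kilobase. EGLN2, a further prolyl hydroxylase, had 119, and ARNT2, the neural partner of HIF alpha, had 89.2 CPM per kilobase. CITED2, a HIF-induced protein that limits HIF activity, had the smallest p for size, with a log2 fold change of 0.10 (adjusted p = 0.826), and VHL, which recognises hydroxylated HIF alpha, the smallest for diet, with 0.15 (adjusted p = 0.786).

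EGLN1 (PHD2; chr14:63786901-63840214, plus strand) is the main oxygen-sensing hydroxylase and also a target of HIF. AGA CON piglets had 15.1, 20.3 and 23.7 CPM at the lowest, median and highest, and AGA HF piglets 16.5, 22.4 and 24.9 CPM. SGA CON piglets had 19.2, 21.9 and 24.4 CPM, and SGA HF piglets 16.9, 18.8 and 24 CPM. All 4 groups overlapped, and the SGA HF median was the lowest. Between sizes, the log2 fold change was -0.081 (95% interval -0.21 to 0.051, adjusted p = 0.865).

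The interaction of size and diet in EGLN1 had a log2 value of -0.35 (95% interval -0.60 to -0.10, adjusted p = 0.57). SGA HF against AGA HF gave -0.26 (adjusted p = 0.575), SGA HF against SGA CON gave -0.22 (adjusted p = 0.644), and SGA CON against AGA CON gave 0.095 (adjusted p = 0.891). None of these passed. The size of the interaction depended on the surrogate variables: it was -0.20 (adjusted p = 0.936) with sex alone, and the SGA HF against AGA HF difference was then -0.097. The 6 HF and 6 CON littermate differences, -0.086 ± 0.34 and 0.11 ± 0.31 (SD), differed by -0.19 (exact permutation p = 0.312). The 5 surrogate variables accounted for 62.9% of the variance of EGLN1.

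EGLN3 (PHD3; chr7:70667662-70695671, plus strand), a hydroxylase strongly induced by HIF, had 3 to 27 counts per library. The AGA CON group had 0.677, 1.60 and 2.39 CPM at the lowest, median and highest, and AGA HF piglets 0.606, 2.17 and 2.72 CPM. The SGA CON group had 0.492, 1.58 and 2.92 CPM, and SGA HF piglets 0.644, 1.36 and 2.34 CPM. The groups overlapped over most of their ranges. The size log2 fold change was -0.11 with a 95% interval from -0.76 to 0.54 (adjusted p = 0.972). The biological coefficient of variation was 35.1%, beside 28.2% from counting. Of the 12 litters, 5 had the higher value in the SGA piglet (exact sign-flip p = 0.592).

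VEGFA (chr7:44459821-44475711, plus strand) encodes the main growth factor for blood vessels. AGA CON piglets had 4.76, 8.00 and 8.67 CPM at the lowest, median and highest, and AGA HF piglets 3.78, 7.38 and 10.5 CPM. SGA CON piglets had 3.12, 8.27 and 12.4 CPM, and SGA HF piglets 4.36, 8.07 and 9.90 CPM. The medians of the 4 groups lay within 1 CPM of each other, and the lowest and highest values were both SGA CON piglets. Between sizes, the log2 fold change was 0.17 (95% interval -0.13 to 0.48, adjusted p = 0.877), and the SGA piglet was higher in 7 of 12 litters (mean difference 0.087 ± 0.53, exact sign-flip p = 0.581).

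ADM (adrenomedullin; chr2:52576219-52578518, minus strand), a vasodilating peptide, had 0 to 18 counts per library and reached 1 CPM in 11 of the 24 libraries. The AGA CON group had 0.560 to 1.55 CPM, AGA HF piglets 0.775 to 1.36, SGA CON piglets 0 to 1.97 and SGA HF piglets 0.351 to 2.49 CPM. The single library without a count was SGA CON replicate 1, which had the highest choroid plexus sum, and the part of this in its level was not tested. The size log2 fold change was -0.060 with a 95% interval from -0.91 to 0.79 (adjusted p = 0.991). Without SGA CON replicate 1 it was 0.17 (adjusted p = 0.951), and the mean littermate difference moved from -0.015 (exact sign-flip p = 0.971) to 0.24 (exact sign-flip p = 0.363) without that litter. A gene on the opposite strand overlaps its exons, and the reads were counted by strand.

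The other vascular genes were described beside these. Of 22 symbols 19 were tested, and none was called for size or diet. At an unadjusted p of 0.05, 2 passed for size, both lower in SGA, and 4 for diet, 1 higher and 3 lower in HF. These were 10.5% and 21.1% of the tested genes, beside 10.6% and 7.1% of all genes. For size 9 were higher and 10 lower in SGA, with a median log2 fold change of -0.002. VEGFB, a relative of VEGFA, had the smallest p for size, with -0.12 (adjusted p = 0.585) and 3 of 12 litters higher in SGA. NRP1, a co-receptor of VEGFA, had the smallest p for diet, with -0.37 (adjusted p = 0.465). RAMP2, the partner of the ADM receptor, was the highest per kilobase, at 205 CPM per kilobase.

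**Figure D3:**
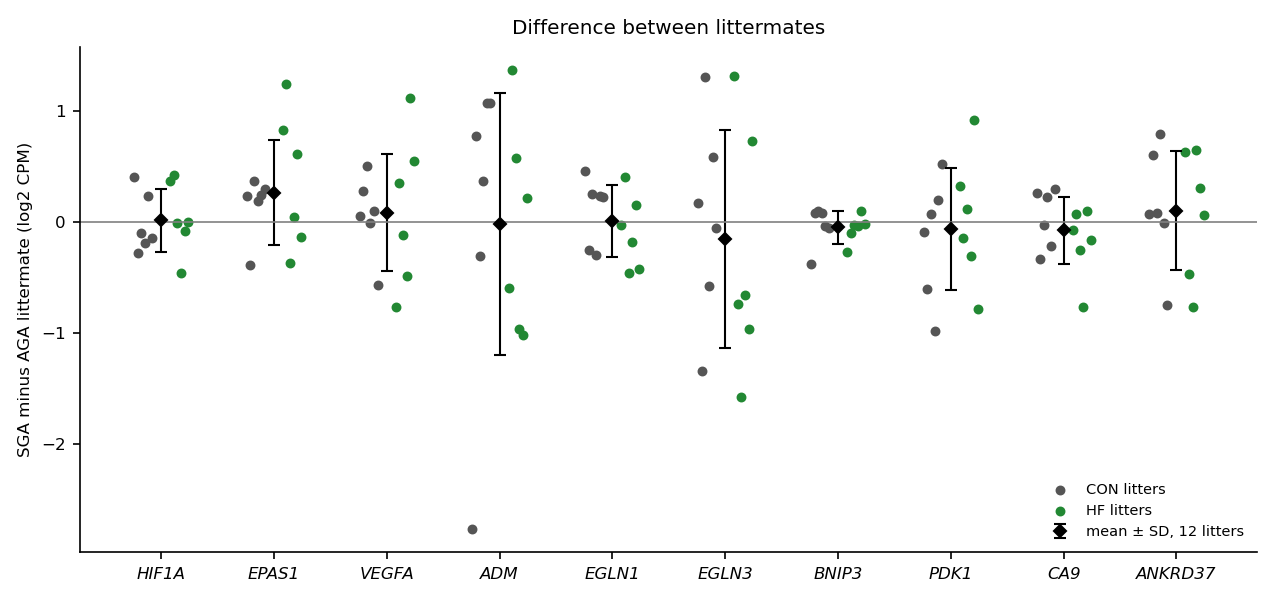
Difference in log2 CPM between the SGA and the AGA piglet of each litter (vertical axis, 0 marked), for the 10 genes; points are litters by diet and diamonds are mean ± SD of 12 litters. EPAS1 had most points above 0 (9 of 12), and ADM and EGLN3 spread the most.

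BNIP3 (chr14:152194909-152204744, minus strand), which marks mitochondria for removal, was the best measured gene of the set, with 1187 to 1936 counts per library. AGA CON piglets had 184, 213 and 250 CPM at the lowest, median and highest, and AGA HF piglets 176, 206 and 233 CPM. The SGA CON group had 192, 207 and 229 CPM, and SGA HF piglets 173, 197 and 227 CPM. The group medians fell within a narrow span and the ranges overlapped throughout. Between sizes, the log2 fold change was -0.087 (95% interval -0.18 to 0.007, adjusted p = 0.761), which is 0.941-fold in SGA, and the SGA piglet was higher in 4 of 12 litters (exact sign-flip p = 0.347). In this fit, which had no litter term, the interval reached no further than a rise of 0.007 on the log2 scale in SGA. Between littermates the mean difference was smaller, at -0.045 ± 0.15 (SD, n = 12 litters), and within cohort 2 it was 0.007.

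PDK1 (chr15:87917870-87949472, plus strand), a kinase that turns pyruvate away from the mitochondria, had 9 to 41 counts. The AGA CON group had 2.66, 3.60 and 5.11 CPM at the lowest, median and highest, and AGA HF piglets 1.48, 4.13 and 4.58 CPM. SGA CON piglets had 2.42, 3.43 and 4.43 CPM, and SGA HF piglets 2.55, 3.58 and 4.64 CPM. The groups overlapped, and a single AGA HF piglet was low. The size log2 fold change was -0.23 (95% interval -0.56 to 0.10, adjusted p = 0.84), and between littermates the mean was -0.061 ± 0.55 (exact sign-flip p = 0.703).

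CA9 (chr1:264118816-264126024, plus strand), a carbonic anhydrase at the cell surface that exports acid, had 28 to 52 counts. AGA CON piglets had 4.11, 5.37 and 7.52 CPM at the lowest, median and highest, and AGA HF piglets 4.48, 5.44 and 5.82 CPM. The SGA CON group had 4.65, 5.82 and 6.42 CPM, and SGA HF piglets 3.32, 4.86 and 5.50 CPM. The SGA HF group was lowest but overlapped the others. The diet log2 fold change was -0.23 (95% interval -0.47 to 0.010, adjusted p = 0.747), while cohort 2 gave 0.041, and the litter means differed by -0.14 (exact permutation p = 0.182). Between sizes, the log2 fold change was -0.016 (adjusted p = 0.992). A gene on the opposite strand overlaps its exons here too.

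ANKRD37 (chr15:53346602-53349746, minus strand), an ankyrin repeat protein known as a HIF-1 target, had 6 to 21 counts. The AGA CON group had 1.20, 1.66 and 2.94 CPM at the lowest, median and highest, and AGA HF piglets 0.811, 1.54 and 1.94 CPM. SGA CON piglets had 1.51, 1.90 and 2.72 CPM, and SGA HF piglets 0.970, 1.40 and 2.72 CPM. Both HF medians lay below both CON medians, with overlap between the groups. The diet log2 fold change was -0.34 (95% interval -0.84 to 0.17, adjusted p = 0.844), and the litter means were 0.80 ± 0.32 in HF and 1.09 ± 0.23 in CON on the log2 CPM scale (exact permutation p = 0.0887). The size log2 fold change was 0.15 (adjusted p = 0.947).

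**Figure D4:**
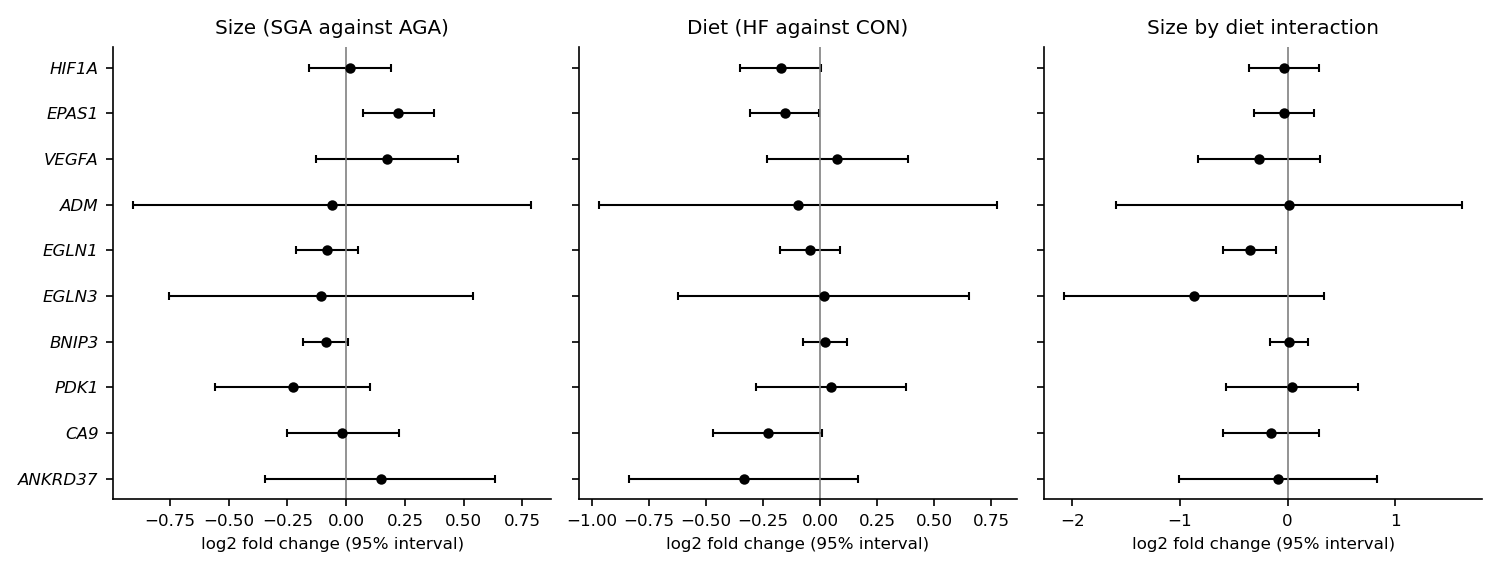
Log2 fold change of each gene with its 95% interval for size, diet and their interaction (edgeR quasi-likelihood fit). For size the interval of EPAS1 lay above 0 (0.071 to 0.37) and for the interaction that of EGLN1 below 0 (-0.60 to -0.10), and neither passed the adjusted threshold.

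All 22 of the genes of sugar metabolism that HIF induces and that were found were tested, and none was called for size or diet. At an unadjusted p of 0.05, 1 passed for size, higher in SGA, and 2 for diet, 1 in each direction. These were 4.55% and 9.09% of the tested genes, beside 10.6% and 7.1% of all genes. Over all genes, 49.2% were higher in SGA and 50.8% higher in HF. For size 12 were higher and 10 lower in SGA, with a median log2 fold change of 0.029, and for diet 7 were higher and 15 lower in HF, with a median of -0.032. GAPDH, ALDOC, TPI1 and ENO2 were the most abundant, at 3020, 1370, 941 and 667 CPM per kilobase. PKM, the last enzyme of glycolysis, had the smallest p for size, with 0.093 ± 0.03 (SE; adjusted p = 0.542), and PFKP, a phosphofructokinase, the smallest for diet, with -0.25 (adjusted p = 0.495).

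Other pyruvate dehydrogenase kinases and carbonic anhydrases were described because they share the enzyme families of PDK1 and CA9. The substrate of PDK1 and the phosphatase PDP1 were listed with them, and PDK3 and CA12 were also counted in other lists. All 9 found were tested and none was called. An unadjusted p of 0.05 was passed by 0 for size and by 2 for diet (22.2%), both lower in HF. Over all genes the shares were 10.6% and 7.1%. In SGA 8 were higher, and in HF 8 were lower, with medians of 0.062 and -0.080. Of all genes, 49.2% were higher in SGA and 50.8% higher in HF. PDK2 had 178 CPM per kilobase, and its size difference was 0.094 (adjusted p = 0.736). PDK4 had the smallest p for diet, with -0.34 (adjusted p = 0.49).

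Of the stress and mitophagy targets, listed beside BNIP3, 14 of 17 symbols were tested and none was called. At an unadjusted p of 0.05, 0 passed for size and 1 for diet (7.14%, lower in HF). Over all genes the shares were 10.6% and 7.1%. For size 7 were higher and 7 lower in SGA, with a median of 0.006. FAM162A, HIGD1A, NDRG1 and BNIP3L, the mitophagy relative of BNIP3, were the most abundant at 77.2, 56.0, 51.8 and 43.9 CPM per kilobase. VLDLR had the smallest p for size, with -0.11 (adjusted p = 0.819), and HILPDA, a lipid droplet protein, the smallest for diet, with -0.29 (adjusted p = 0.684).

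Of the feedback, matrix and chromatin targets, 17 of 19 symbols were tested, with 10 higher and 7 lower in SGA and a median of 0.045. None was called, and at an unadjusted p of 0.05, 3 passed for size, all higher in SGA, and 2 for diet, both lower in HF. These were 17.6% and 11.8% of the tested genes, beside 10.6% and 7.1% of all genes. TFRC, the transferrin receptor, had -0.95 for diet (adjusted p = 0.585) at a mean of 1.02 CPM. Among immediate early genes, which respond to handling and activity within minutes, 9 of 12 were tested and none was called, with 2 higher in SGA and 1 lower in HF at an unadjusted p of 0.05. These were 22.2% for size and 11.1% for diet, beside 10.6% and 7.1% of all genes. JUNB had the smallest p for size, with 0.17 (adjusted p = 0.621), and JUN the smallest for diet, with -0.16 (adjusted p = 0.656).

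**Figure D5:**
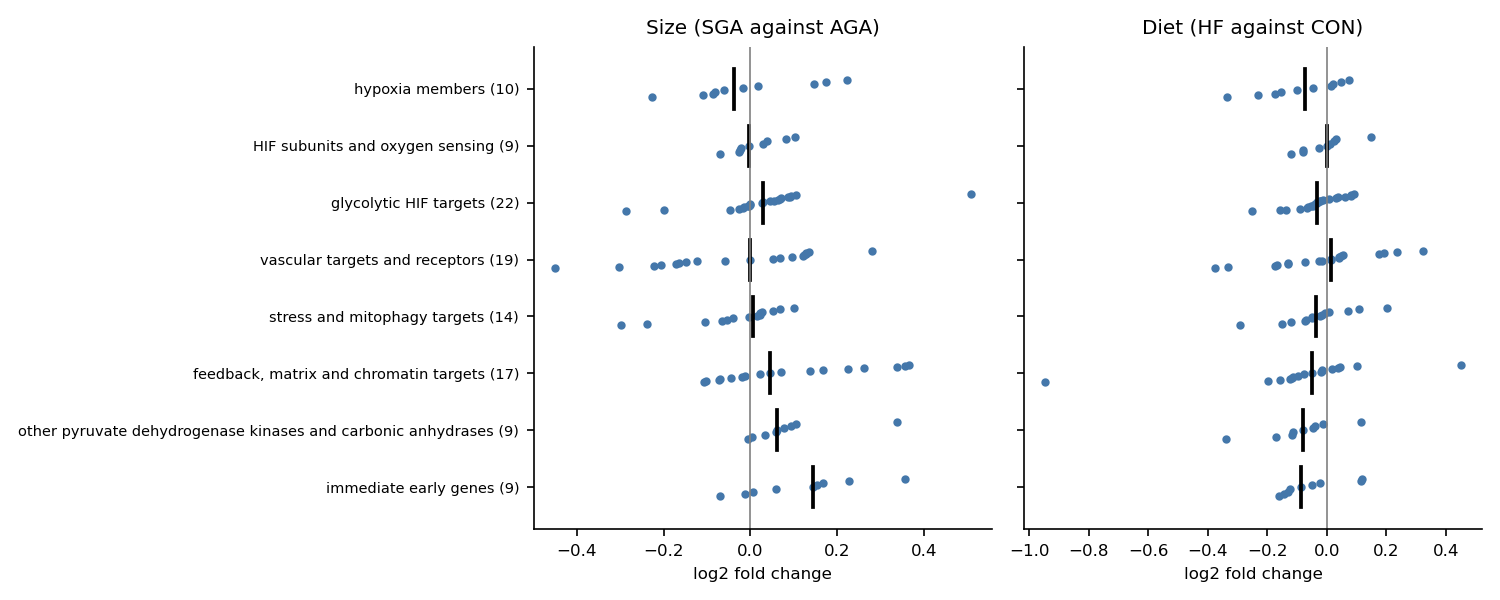
Log2 fold change of each tested gene for size and for diet in the hypoxia-responsive genes and 7 related lists (number tested in brackets); points are genes, black bars are list medians and the grey line is the median of all genes tested. The size medians of the lists lay between -0.038 and 0.14 beside -0.002 for all genes.

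The littermate differences of the 6 genes with at least 5 CPM were also set against each other, over 12 litters in 15 pairs of genes. EPAS1 and EGLN1 had r = 0.677 and rho = 0.678 (permutation p = 0.0135 and 0.0175, adjusted 0.102 and 0.262), and r was 0.583 without the 2 farthest litters. HIF1A and BNIP3 had r = -0.705 and rho = -0.545 (permutation p = 0.00886 and 0.072, adjusted 0.102 and 0.272), and r was -0.605 without the 2 farthest litters. HIF1A and EPAS1 had r = 0.587 (permutation p = 0.0449, adjusted 0.225) and rho = 0.503 (permutation p = 0.101, adjusted 0.272), and r was 0.478 without the 2 farthest litters. None of the 15 pairs stayed under 0.05 after Benjamini-Hochberg adjustment, and HIF1A and VEGFA had r = -0.0113 (permutation p = 0.971, adjusted 0.971).

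The genes whose pattern was most like each of these 6, over the residuals of log2 CPM from the 4 group means in 24 libraries and among 9382 genes, are given as a description. EPAS1 was most like CDK12 and DST (r = 0.892 for each), EGLN1 most like ARID1A (0.874) and KLF13 (0.873), and HIF1A most like CTTNBP2 (0.857). BNIP3 was most like TRIM3 (0.877) and YPEL3 (0.871), VEGFA most like SLC8B1 (0.833) and GMPPB (0.799), and CA9 most like ADIRF (0.762) and JMJD4 (0.751). None of these likest genes was another hypoxia-responsive gene. All genes of a library share its preparation and depth, which were not separated from these values. RNA quality was not separated either: the paper gives only an average quality number, which it puts down to pre-spliced RNA.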

How the data were processed

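Hippocampal RNA of 24 piglets was sequenced. Per the labels and the paper's methods, the authors made the files with bcl2fastq 2.17.1.14, Trimmomatic 0.33, STAR 2.5.2a against Sscrofa10.2 and featureCounts of Subread 1.5.0 on exons by strand (edgeR 3.16.5 is also named), and deposited unnormalized counts of 38882 genes per library. An entry without an identifier (0.613 to 1.62% of each library, mitochondrial ribosomal and transfer RNA) was left out. Gene symbols came from a table matched on the identifier.

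R 4.3.3 was used, with the packages DESeq2 1.42.0, sva 3.50.0, edgeR 4.0.16 and limma 3.58.1. Genes had to reach 1 CPM in 3 or more libraries, which left 16326. They were normalized by TMM and fitted with edgeR's quasi-likelihood test on group, sex and 5 surrogate variables (log2 CPM, prior count 2), without a litter term. FDR p was adjusted over all 7 contrasts and called at 0.4, the wide threshold that the paper set for its heat map. At it this fit called 78 genes for size and 26 for diet. The paper, which used limma voom and kept more genes by its filter, reports more differing genes for both. Here limma voom called fewer than edgeR, 53 for size and 10 for diet, and the reason for the gap to the paper was not tested. Littermate differences used exact sign-flip tests (4096 patterns) and diet exact permutation tests over 6 against 6 litter means (924 splits). Neither test could give a p below 0.000488 or 0.00216 respectively. The scripts were tested on simulated data.

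The labels give the litter of each piglet. Deviations of littermates from their group means correlated at a mean of 0.154 (0.0144 to 0.329 over 12 litters), against 0.0314 for non-littermates matched on diet and cohort. The fit with litter as a block called no gene of the set. Over all 16326 genes it called 420 for size, beside 78 in the main fit.

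The members and gene lists were chosen with earlier results of these data known. From each other list the text names genes past the threshold, those with the smallest p for size and diet, and up to 4 with the highest level per kilobase. Some genes that these rules or the likeness ranking would name are not reported here. Whether piglets of different litters shared a sow is not stated. Alternatives covered normalization, filter, test, covariates, litter block, cohort and single libraries or litters.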

Additional observations from a re-analysis of the deposited data

Results flagged for a closer look

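In groups of 6, a sample was noted where its gap to the nearest value exceeded 0.625 of the group's range. Among 40 groups (10 genes in 4 groups), 4 were noted, and chance notes about 1 in 20. They were EPAS1 in AGA CON replicate 2, at 51.6 CPM against 33.2 for the next, ADM in AGA HF replicate 1, at 1.36 CPM against 0.987, PDK1 in AGA HF replicate 5, at 1.48 CPM against 3.63, and VEGFA in AGA CON replicate 6, at 4.76 CPM against 7.24. The EPAS1 library had the lowest neuron sum and the highest endothelial sum, and the part of this in its level was not tested.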

How the results depend on the processing

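All 7 counts of called genes stayed at 0 under every alternative run, the fit with the replicate block of litter included (0 called in the 4 contrasts that involve size). The count of genes whose littermate difference passed 0.05 went from 0 to 1 when litter 4 or litter 5 was left out (range 0 to 1), by EPAS1. No other count moved. Since no gene of the set was called, every reversal fell among differences that were not called, and the cause was not tested. In the fits the sign reversed in 15 of 130 alternatives for size and in 23 of 120 for diet. The largest main values that reversed were 0.087 for size and 0.231 for diet, without regard to sign. In the block fit the size log2 fold change of ADM was 0.089 and of EGLN1 0.007. With sex only ADM was 0.16, EGLN1 0.001, and for diet BNIP3 -0.057, EGLN3 -0.005 and VEGFA -0.057. With cohort and sex ADM was 0.15, EGLN1 0, and for diet BNIP3 -0.056 and VEGFA -0.049. In cohort 1 the size value of EGLN1 was 0.051 and the diet values were 0.21 for ADM, -0.018 for BNIP3, 0.059 for EGLN1 and -0.30 for VEGFA. In cohort 2 the size values were 0.13 for ADM, 0.005 for BNIP3 and -0.10 for HIF1A, and the diet values -0.088 for BNIP3, 0.041 for CA9, -0.20 for EGLN3, 0.039 for EPAS1 and -0.18 for PDK1. For diet, limma voom gave 0.11 for ADM and -0.092 for EGLN3, and no filter gave -0.030 for EGLN3. With 1 of 4 doubted libraries left out, chosen after seeing the data, size values ranged from -0.028 to 0.051 for HIF1A, -0.079 to 0.17 for ADM and -0.048 to 0.011 for CA9, and diet values from -0.10 to 0.16 for EGLN3, -0.43 to 0.14 for ADM, -0.072 to 0.15 for VEGFA, -0.016 to 0.086 for PDK1 and -0.050 to 0.048 for BNIP3. Littermate differences ranged, with a litter left out, from -0.021 to 0.060 for HIF1A, -0.031 to 0.052 for EGLN1, -0.14 to 0.24 for ADM, -0.15 to 0.022 for PDK1 and -0.007 to 0.17 for VEGFA. In cohort 2 they were 0.13 for ADM, 0.007 for BNIP3, -0.046 for EGLN1 and -0.11 for HIF1A, and with plain library totals -0.005 for EGLN1. The diet dependence of ADM was 0.043 with a prior count of 0.5. Depth limited ADM, EGLN3, ANKRD37 and PDK1 most.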

Other observations

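Of 11 lists of cell type markers, 9 held no gene that passed the threshold in any of the 7 contrasts. In the oligodendrocyte list 6 of 6 tested markers had a lower mean in SGA, with a median size log2 fold change of -0.17 (beside -0.002 over all genes tested), none was called, and 1 passed an unadjusted p of 0.05. Over all genes tested, 10.6% passed that p for size and 49.2% were higher in SGA. The summed oligodendrocyte level had a median of 21800 CPM in AGA piglets (13600 to 24900) and 16800 CPM in SGA piglets (11400 to 22500). CNP, an enzyme of myelin, was higher in the SGA piglet in 0 of 12 litters (size log2 fold change -0.27, adjusted p = 0.648). These levels were not set against the hypoxia-responsive genes by a test.

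For diet, the meningeal genes PRG4 and TNMD passed the threshold, with log2 fold changes of 4.91 (adjusted p = 0.146) and 2.48 (adjusted p = 0.217), at mean levels of 0.601 and 1.10 CPM. Diet was given by litter, and over litter means (6 HF and 6 CON) the difference in log2 CPM was 0.94 for PRG4 (exact permutation p = 0.0974) and 1.16 for TNMD (exact permutation p = 0.0346). With sex alone in place of the surrogate variables both calls were lost (PRG4 2.68, adjusted p = 0.773, and TNMD 1.8, adjusted p = 0.784), as they were with cohort and sex (adjusted p = 0.638 and 0.676). By limma voom PRG4 had 2.53 (adjusted p = 0.428) and TNMD 2.33 (adjusted p = 0.273), and by DESeq2 PRG4 had 2.66 (adjusted p = 0.358). Within cohorts TNMD had 2.14 (adjusted p = 0.972) and 1.29 (adjusted p = 0.895), and PRG4 did not pass the filter. With single libraries left out, a choice made after seeing the data, PRG4 had 3.10 without AGA CON replicate 2 (adjusted p = 0.299) and no longer passed the filter on low counts without AGA HF replicate 4. TNMD lay between 2.05 without AGA HF replicate 4 (adjusted p = 0.369) and 2.87 without SGA HF replicate 4 (adjusted p = 0.0817). GH1, a pituitary hormone, was called for SGA HF against SGA CON (adjusted p = 0.0181), and the call was lost without SGA HF replicate 4, where the log2 fold change was 4.45 (adjusted p = 0.552), with DESeq2 (5.95, adjusted p = 0.724) and within cohort 1 (6.35, adjusted p = 0.972). That library held 384 CPM of pituitary markers, beside a median of 35.6 CPM over all libraries.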
